A study of Mus musculus with 60 samples.

Results

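A set of 9 genes of airway and ciliated epithelium was followed in mouse embryos of strain C57Bl/6, through the maxilla, the upper jaw, and the mandible, the lower jaw, as they formed. They are Bpifa1, Cyp2f2, Cbr2, Serpinb11, Foxa1, Foxj1, Dynlrb2, Deup1 and Pifo, which make 9 of the 18193 genes measured. They were chosen by their rise in the maxilla between embryonic days E13.5 and E14.5, so that rise is given here as a description and is not tested. What the choice did not use is where in each jaw the genes were high, and what they did in the mandible. The tests of position in the maxilla at E13.5 and E14.5 nevertheless use the same arrays that the choice was made on. So do the tests of the change of that position difference and of its contrast with the mandible.

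RNA was measured on Affymetrix mouse arrays, which read each transcript with sets of short probes, with an input of 3 µg of total RNA. Distal and proximal pieces of both jaws were taken on each day from E10.5 to E14.5, which gives 20 groups of 3 arrays, 60 in all. All groups are of that strain, and the labels name no transgene or treatment. The labels call the pieces distal or proximal bone, leave unsaid whether replicate arrays are different embryos, and name 4 batches. The p-values here thus rest on a spread between arrays that may be technical. Batch 1 holds the mandible from E13.5 on, and batch 2 the mandible at E12.5 with the maxilla from E12.5 on. Levels of the jaws at E13.5 and E14.5 are therefore set side by side, and for those jaw and batch cannot be told apart. Position and age within a jaw were compared inside a batch.

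The respiratory lining of the nose and airways holds multiciliated cells, whose motile cilia move mucus, and secretory cells, which release protective proteins and carry detoxifying enzymes. Foxj1 is the forkhead transcription factor that switches on the genes of motile cilia, Deup1 builds the deuterosomes on which multiciliated cells make many centrioles, Dynlrb2 is a light chain of dynein motors, and Pifo (pitchfork) is a ciliary protein. Bpifa1 is a secreted antimicrobial protein of the nasal and upper airway lining, Cyp2f2 is a cytochrome P450 abundant in club cells of the mouse airway, Cbr2 is a carbonyl reductase known from lung, Serpinb11 belongs to the clade B serpins, many of which are epithelial, and Foxa1 is a forkhead factor that opens chromatin in endodermal and other epithelia.

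The promoters of the 9 genes were read for the short core of the X-box (GTTGCC, or GGCAAC on the other strand), the element bound by the RFX factors of ciliated cells. The RefSeq promoter table (GRCm38.p6, 250 bases before to 50 after each start) held 8 of the 9 genes with 10 promoters. That core stood in 3 of those 10 promoters, those of Dynlrb2, Deup1 and Pifo, and in 4111 of all 32851 promoters of the table. Deup1 and Pifo have 2 starts each in the table, and a single start of each held it. The 100 bases before the start are shown for these promoters, with the core in capitals, read 5′ to 3′ on the strand of the gene.
Dynlrb2 (chr8:116504915-116505014, plus strand): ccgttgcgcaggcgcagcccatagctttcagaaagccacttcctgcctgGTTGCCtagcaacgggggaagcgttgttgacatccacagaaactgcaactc
Deup1 (chr9:15627847-15627946, minus strand): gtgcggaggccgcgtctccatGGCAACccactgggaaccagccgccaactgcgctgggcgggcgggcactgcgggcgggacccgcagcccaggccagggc
Pifo (chr3:106001498-106001597, minus strand): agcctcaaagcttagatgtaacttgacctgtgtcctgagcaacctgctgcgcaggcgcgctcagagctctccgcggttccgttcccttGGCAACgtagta
The match began 51 bases before the start in Dynlrb2, 79 in Deup1 and 12 in Pifo. The core of forkhead sites (TGTTTAC, or GTAAACA on the other strand) stood only in the promoter of Foxa1 among the 10, at 141 bases before its start, against 3.65% of all promoters. These letters are a description of the sequence and not evidence that a factor binds there.

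Values are on the log2 scale, where a step of 1 stands for 2-fold. The table holds no detection calls, and a group mean not above 4.78 (the largest of the arrays' 25th percentiles) is treated here as low, so that a difference from such a group is at best a lower bound. Array medians ran from 6.05 to 6.31. Hand2, a gene of the lower jaw, was at 8.36 to 13.16 in all mandible arrays and at 4.67 to 7.76 in all maxilla arrays, on the side that the jaw labels give. A gene counts as higher or lower where the adjusted p of limma, corrected with Benjamini-Hochberg over all genes, was under 0.05. Errors beside differences are standard errors from that fit, with 3 arrays a group.

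Before E13.5 the secretory and enzyme genes and the cilium genes were low or level in both jaws. Over the 36 arrays of E10.5 to E12.5, Bpifa1 lay between 3.47 and 4.15, Cyp2f2 between 3.40 and 4.11 and Serpinb11 between 3.65 and 4.59, with all 12 group means under the low-signal limit. Cbr2 had a measurable level from the start, with group means from 5.97 to 6.88. The cilium genes stayed near the limit, Foxj1 with group means from 5.01 to 5.33, Dynlrb2 from 4.30 to 5.08, Deup1 from 4.84 to 5.28 and Pifo from 4.85 to 5.50. Signals of that size cannot be told from background without detection calls.

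Foxa1 was the exception, and its early course was its own. In the distal mandible at E10.5 the arrays read 8.78, 8.79 and 8.87, against 7.77, 7.67 and 7.55 in the proximal mandible. The distal arrays were all above the proximal ones, by 1.15 ± 0.27 (SE, adjusted p = 0.000979). Its mean in the mandible was 7.15 distally and 7.28 proximally at E11.5, and 5.64 and 5.98 at E12.5, an age that lies in another batch. At E11.5 the 3 distal mandible arrays of Foxa1 spread from 6.05 to 7.95. In the maxilla its mean was 6.58 distally and 6.56 proximally at E10.5. The maxilla arrays of E10.5, E11.5 and E12.5 lie in batches 4, 3 and 2, so age and batch cannot be told apart across them. At E11.5 it was lower distally by 0.89 (adjusted p = 0.00628) and at E12.5 higher distally by 1.10 (adjusted p = 0.000588).

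Few of the other genes differed by position at these ages. Cbr2 was higher distally in the maxilla at E11.5 by 0.35 and at E12.5 by 0.41, and in the mandible at E12.5 by 0.37, and each of these calls was lost without replicate 3 in all groups (adjusted p = 0.219, 0.256 and 0.0879). Dynlrb2 was lower distally in the mandible at E12.5 by 0.62 (adjusted p = 0.0339), which was lost without replicate 1 (adjusted p = 0.352). In all, 2 of the 9 genes were called by position in the maxilla at E12.5, where 39.0% of all genes were called in either direction. The same number, 2, was called in the mandible at E12.5 (32.7%) and in the maxilla at E11.5 (34.7%). A single gene, Foxa1, was called in the mandible at E10.5 (19.1%). In limma 0 of the 9 were called in the mandible at E11.5 (8.93%) and 0 in the maxilla at E10.5 (20.2%), and in both cases 0 had an unadjusted p under 0.05. Between the jaws at E12.5, which lie in a single batch at that age, Cbr2 was higher in the mandible by 0.47 ± 0.09 (adjusted p = 3.79e-05) and Foxa1 by 0.64 ± 0.19 (adjusted p = 0.00416), 2 of 9 where 41.3% of all genes were called.

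**Figure D1:**
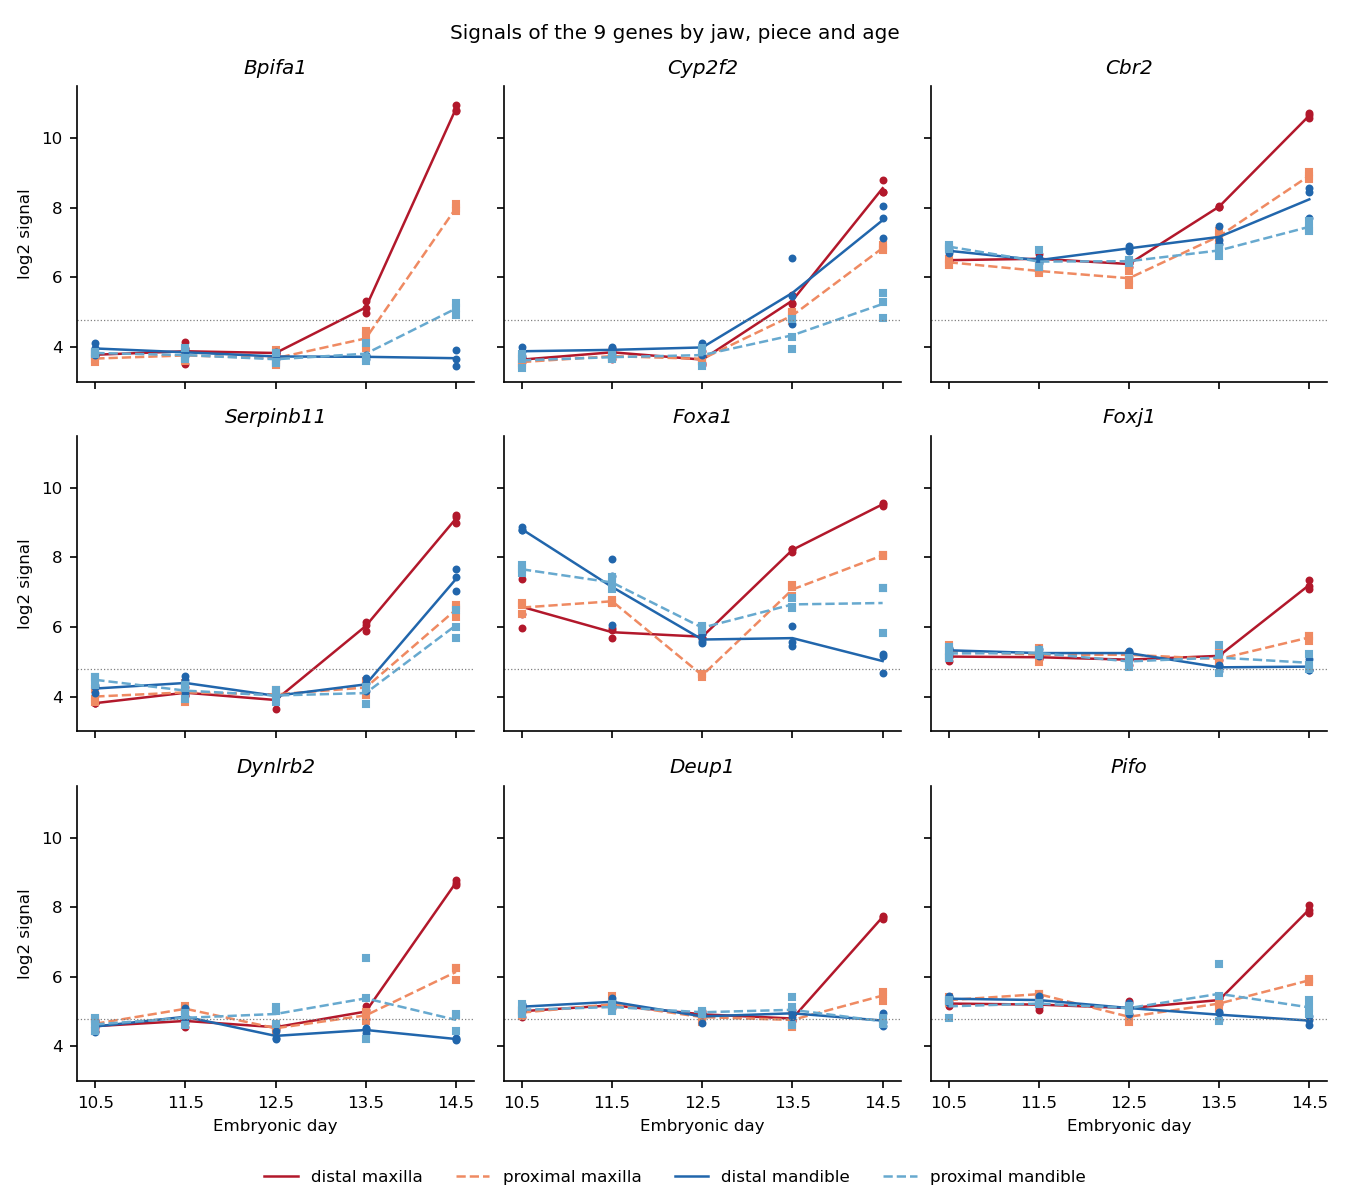
Log2 signal (vertical axis) of the 9 genes against embryonic day, with a line through the group means and a point for each array. Red shades are the maxilla and blue shades the mandible, solid lines and circles are distal pieces, dashed lines and squares proximal pieces, and the dotted line is the low-signal limit of 4.78. The distal maxilla at E14.5 is the highest of the 20 groups for all 9 genes, with Bpifa1 at 10.85 and Foxj1 at 7.21.

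From E12.5 to E13.5 the maxilla already separated the genes into 2 courses, given here without a test because the arrays of E13.5 also entered the choice. Foxa1 gained 2.48 as a mean of both pieces, Cyp2f2 gained 1.48, Cbr2 1.43, Serpinb11 1.17 and Bpifa1 0.94. The cilium genes differed by -0.10 for Deup1, -0.01 for Foxj1, 0.31 for Pifo and 0.41 for Dynlrb2. At E13.5 the means of the cilium genes in the maxilla were still between 4.76 and 5.33.

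From E13.5 to E14.5 all 9 rose in the maxilla, which is what they were chosen for. In this contrast 10.3% of all genes were called higher and 12.9% lower. Averaged over both pieces, Bpifa1 gained 4.73, Serpinb11 2.66, Cyp2f2 2.59, Dynlrb2 2.48, Cbr2 2.18, Deup1 1.81, Pifo 1.64, Foxj1 1.33 and Foxa1 1.15. The median over the 9 was 2.18, and over all genes it was -0.02. Bpifa1, Serpinb11 and Deup1 started from a proximal group at or under the low-signal limit, so their differences are lower bounds at best. Dynlrb2, Foxj1 and Pifo started from means of 4.89 to 5.33, which cannot be told from background without detection calls. The gain was larger in the distal piece for each of the 9, from 1.32 for Foxa1 to 5.71 for Bpifa1, against 0.62 for Foxj1 to 3.75 for Bpifa1 in the proximal piece.

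**Figure D2:**
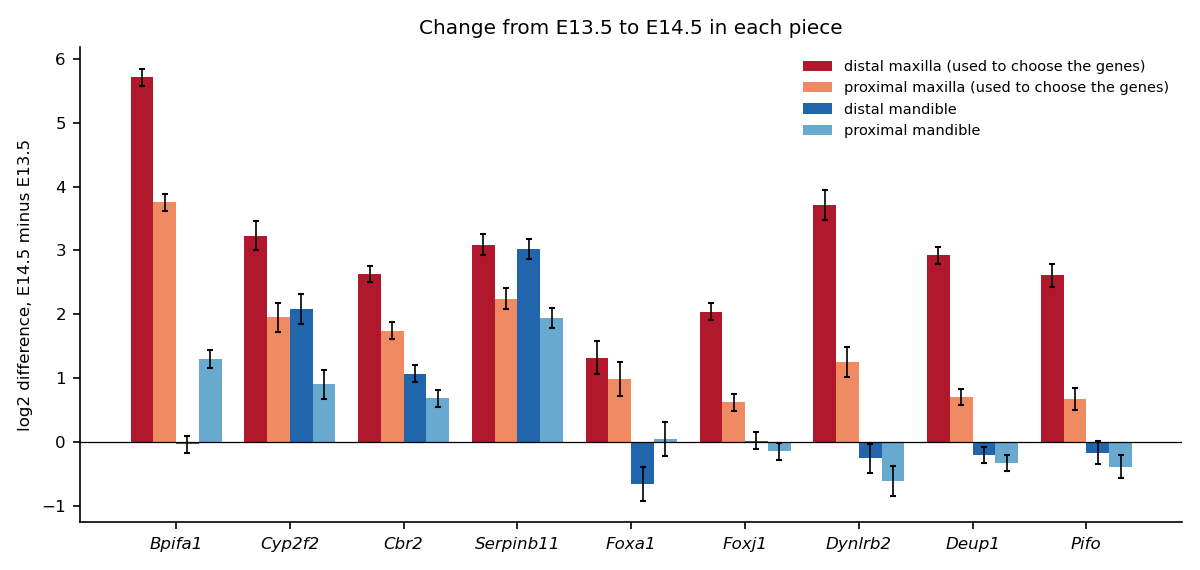
Log2 difference between E14.5 and E13.5 (vertical axis) for each gene in the 4 pieces, with bars for the difference and whiskers for 1 standard error from the fit (3 arrays against 3). The maxilla bars are the measure the genes were chosen by. In the mandible Serpinb11 reaches 3.02 distally, while the cilium genes lie between -0.62 and 0.02.

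Within the maxilla at E14.5 all 9 genes were higher in the distal piece, where 21.3% of all genes were called higher distally and 12.3% lower. The differences ran from 1.47 to 2.86 with a median of 2.04, against a median of 0.05 over all genes. For each of the 9, all distal arrays were above all proximal arrays, but how many of all genes separate like this was not counted. Proximal levels at E14.5 were nevertheless above the low-signal limit for every gene. These are bulk tissue pieces, so more cells of a type and more RNA per cell cannot be told apart in any of these values.

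Bpifa1 had the largest difference of the 9. Its distal maxilla arrays at E14.5 read 10.77, 10.95 and 10.82 and its proximal arrays 7.98, 7.90 and 8.10. The distal piece was thus 7.24-fold higher, a log2 difference of 2.86 ± 0.14 (adjusted p = 4.97e-23). Serpinb11 read 9.21, 9.0 and 9.16 distally and 6.64, 6.56 and 6.29 proximally, a difference of 2.63 ± 0.16 (adjusted p = 6.65e-19). The enzymes followed with smaller differences of like size. Cbr2 read 10.71, 10.66 and 10.59 distally and 9.04, 8.91 and 8.82 proximally, a difference of 1.73 ± 0.13. Cyp2f2 read 8.79, 8.44 and 8.45 distally and 6.78, 6.83 and 6.92 proximally, a difference of 1.72 ± 0.23.

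The cilium genes were only modestly raised in the proximal maxilla at E14.5. Dynlrb2 read 8.64, 8.79 and 8.70 distally and 6.25, 5.92 and 6.26 proximally, a 5.93-fold difference (log2 2.57 ± 0.23, adjusted p = 4.58e-13). Deup1 read 7.67, 7.76 and 7.73 distally and 5.51, 5.31 and 5.55 proximally, a difference of 2.27 ± 0.13. The distal arrays of these genes lay far from the proximal ones compared with the spread within either group. Pifo read 8.06, 7.84 and 7.93 distally and 5.92, 5.94 and 5.84 proximally, a difference of 2.04 ± 0.18. Foxj1, the transcription factor among the cilium genes, read 7.18, 7.35 and 7.10 distally and 5.61, 5.74 and 5.75 proximally, a difference of 1.51 ± 0.13 (adjusted p = 1.74e-13). Foxa1 had the smallest difference, 1.47 ± 0.27, with 9.56, 9.49 and 9.55 distally and 8.05, 8.07 and 8.06 proximally.

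A day earlier the position of the groups differed. At E13.5 Foxa1, Serpinb11, Bpifa1 and Cbr2 were already higher in the distal maxilla, 4 of 9 where 5.40% of all genes were called higher and 10.3% lower. With arrays centred on their medians 67.7% of the calls were higher in place of 34.4%, and with a repeated quantile normalization 52.1%. Serpinb11 read 5.88, 6.07 and 6.13 distally and 4.32, 4.03 and 4.44 proximally, a difference of 1.77 ± 0.16 (adjusted p = 3.47e-12), with the proximal group under the low-signal limit. Foxa1 differed by 1.13 ± 0.27 (adjusted p = 0.00128), Bpifa1 by 0.89 ± 0.14 and Cbr2 by 0.85 ± 0.13. Cyp2f2 differed by 0.44 ± 0.23 (adjusted p = 0.23) with distal arrays above proximal ones. The cilium genes differed by 0.05 to 0.11 with overlapping arrays, and 0 of the 4 were called by limma or had an unadjusted p under 0.05.

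The position difference itself grew between E13.5 and E14.5. In the test of that change 8 of the 9 genes were called higher, where 4.08% of all genes were called higher and 3.01% lower (2.62% and 3.76% with arrays centred on their medians, 2.98% and 4.01% with a repeated quantile normalization). Dynlrb2 changed by 2.46 ± 0.33 (adjusted p = 4.03e-07), Deup1 by 2.22 ± 0.18, Bpifa1 by 1.97 ± 0.20, Pifo by 1.94 ± 0.25 and Foxj1 by 1.42 ± 0.19. Cyp2f2 changed by 1.28 ± 0.33 (adjusted p = 0.00797), Cbr2 by 0.89 ± 0.19 and Serpinb11 by 0.86 ± 0.23 (adjusted p = 0.0128). The calls of Cyp2f2 and Serpinb11 were lost without replicate 1 (adjusted p = 0.0771 and 0.106) or without replicate 3 (adjusted p = 0.0913 and 0.15). Foxa1 was the gene not called, at 0.33 ± 0.38 (adjusted p = 0.693). For Bpifa1, Serpinb11 and Deup1 the proximal group at E13.5 lay at or under the low-signal limit. The means of Dynlrb2, Foxj1 and Pifo at E13.5 were 4.89 to 5.33 in both pieces, which cannot be told from background without detection calls. The position difference of all these genes at E13.5 may therefore be understated and its growth overstated. The test of this change uses the arrays that the choice was made on, so its 8 calls are not independent of that choice.

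**Figure D3:**
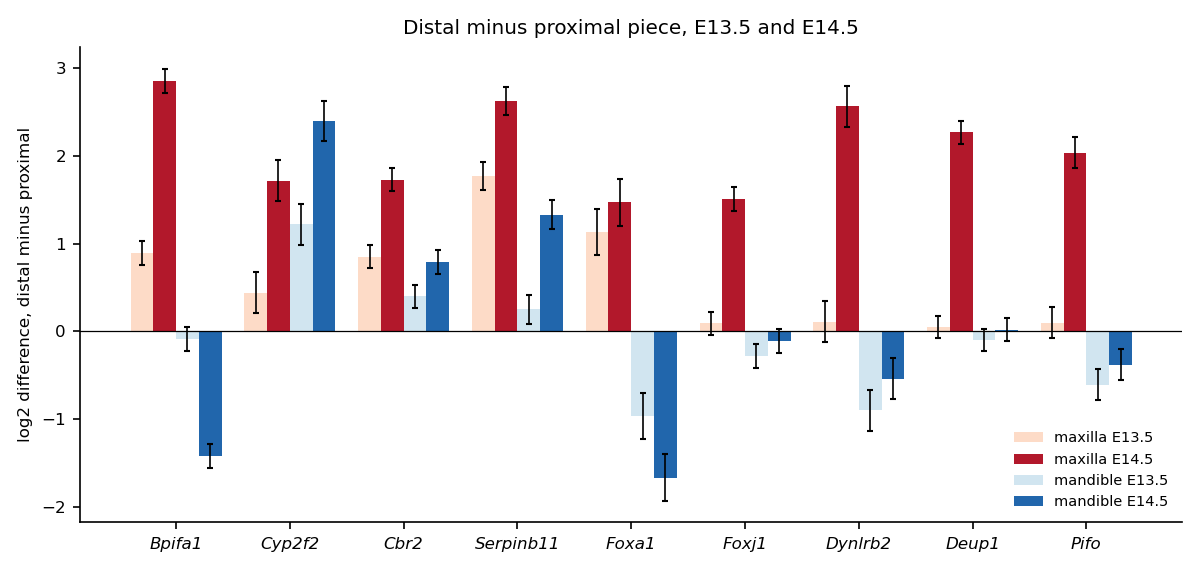
Log2 difference of the distal minus the proximal piece (vertical axis) for each gene at E13.5 (pale bars) and E14.5 (dark bars) in the maxilla (red) and mandible (blue), with whiskers of 1 standard error from the fit (3 arrays against 3). All 9 maxilla bars at E14.5 are above 0. In the mandible at E14.5 Cyp2f2 reaches 2.40 while Bpifa1 is at -1.42 and Foxa1 at -1.67.

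In the mandible the 9 genes did not move as a group. From E13.5 to E14.5 Bpifa1, Cyp2f2, Cbr2 and Serpinb11 rose, and none of the cilium genes was called higher. Of the 9, 4 were called higher and 2 lower, where 13.3% of all genes were called higher and 17.2% lower, and the median of the 9 was -0.06 against -0.03 over all genes. In the distal piece alone 3 were called higher and 0 lower, where 9.21% of all genes were higher and 7.79% lower. In the proximal piece alone 4 were called higher and 0 lower, where 9.10% of all genes were higher and 12.3% lower. Foxa1 in the distal piece and Dynlrb2, Deup1 and Pifo in the proximal piece were lower at an unadjusted p under 0.05 only.

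Serpinb11 had the largest rise in the mandible. Its distal arrays read 4.52, 4.38 and 4.16 at E13.5 and 7.67, 7.43 and 7.04 at E14.5, and its proximal arrays 4.25, 3.79 and 4.27 and then 6.49, 5.99 and 5.67. All arrays of E14.5 were above those of E13.5, whose means are under the low-signal limit. As a mean of both pieces it rose by 2.48 ± 0.12 (adjusted p = 1.89e-23), beside 2.66 in the maxilla. Cyp2f2 rose by 1.49 ± 0.16 (adjusted p = 2.16e-10), with distal arrays of 6.55, 4.65 and 5.46 at E13.5 and 7.71, 7.14 and 8.06 at E14.5. Its level in the distal mandible at E14.5 was 7.64 ± 0.47 (SD, n = 3), and in the distal maxilla 8.56 ± 0.20. Cbr2 rose by 0.88 ± 0.09 (adjusted p = 1.09e-10), to 8.24 in the distal and 7.45 in the proximal mandible.

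Bpifa1 was at or near the low-signal limit in most of the mandible. Its proximal arrays read 3.60, 3.69 and 4.12 at E13.5 and 5.12, 5.26 and 4.90 at E14.5, a rise of 1.30 ± 0.14 (adjusted p = 2.54e-10) from a group under the low-signal limit. Its distal arrays read 3.76, 3.73 and 3.65 and then 3.65, 3.92 and 3.45, a difference of -0.04 ± 0.14 (adjusted p = 0.9). Both distal groups lie under the low-signal limit. Foxa1 differed by -0.66 ± 0.27 distally (adjusted p = 0.0819) and by 0.04 ± 0.27 proximally.

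By position in the mandible at E14.5 the genes split. Cyp2f2, Cbr2 and Serpinb11 were higher distally and Bpifa1 and Foxa1 lower distally, 3 and 2 of 9 where 15.0% of all genes were called higher and 11.8% lower. Cyp2f2 was 5.29-fold higher distally (log2 2.40 ± 0.23, adjusted p = 6.92e-12), with proximal arrays of 4.84, 5.55 and 5.30. Serpinb11 differed by 1.33 ± 0.16 (adjusted p = 6.1e-09) and Cbr2 by 0.79 ± 0.13 (adjusted p = 5.4e-06). Bpifa1 differed by -1.42 ± 0.14 (adjusted p = 1e-11), with the distal group under the low-signal limit. Foxa1 differed by -1.67 ± 0.27 (adjusted p = 2.01e-06), with distal arrays of 5.22, 4.67 and 5.18 and proximal arrays of 5.84, 7.12 and 7.13. The distal and proximal arrays of these 5 genes did not overlap, which was likewise not counted over all genes.

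At E13.5 part of that pattern was present. Cyp2f2 was higher in the distal mandible by 1.22 ± 0.23 (adjusted p = 3.98e-05), though its arrays overlapped those of the proximal piece, and Cbr2 by 0.40 ± 0.13 (adjusted p = 0.0209). Foxa1 was lower distally by 0.97 ± 0.27 (adjusted p = 0.00422), with arrays of 6.03, 5.56 and 5.46 against 6.58, 6.82 and 6.55. Together with Dynlrb2 and Pifo this made 2 higher and 3 lower of 9, where 12.4% of all genes were called higher and 12.9% lower (18.1% and 11.2% with arrays centred on their medians). The call of Cbr2 was lost without replicate 1 (adjusted p = 0.237) or without replicate 3 (adjusted p = 0.0582).

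The jaws differed in how the genes were placed at E14.5. The test compared the distal minus proximal difference of the maxilla with that of the mandible, each formed inside its own batch. An added batch shift cancels in this test, but a batch difference in scale would not. In it 8 of the 9 genes were called higher in the maxilla, where 12.0% of all genes were higher and 10.6% lower (16.7% and 9.26% with arrays centred on their medians). Bpifa1 differed most, by 4.28 ± 0.20 (adjusted p = 9.88e-23), followed by Foxa1 at 3.14 ± 0.38 (adjusted p = 3.46e-09), and these 2 genes were called in opposite directions in the jaws. Dynlrb2 differed by 3.11 ± 0.33, Pifo by 2.42 ± 0.25, Deup1 by 2.25 ± 0.18 and Foxj1 by 1.62 ± 0.19. The mandible differences in this test were -0.54 for Dynlrb2, -0.38 for Pifo, 0.02 for Deup1 and -0.11 for Foxj1. Proximal mandible replicates 1 and 2 at E14.5 had raised signals of the choroid plexus gene Ttr (10.25 and 10.96), as described below. Serpinb11 differed by 1.30 ± 0.23 and Cbr2 by 0.94 ± 0.19, and the call of Cbr2 was lost without replicate 2 (0.57, adjusted p = 0.0637). Cyp2f2 was not called, at -0.69 ± 0.33 (adjusted p = 0.135), but was without replicate 2 (-1.04, adjusted p = 0.0272).

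The cilium genes in the mandible need the arrays themselves. In the proximal mandible at E13.5 Dynlrb2 read 5.38, 4.21 and 6.54, Pifo 5.44, 4.74 and 6.36, Foxj1 5.22, 4.67 and 5.48 and Deup1 5.12, 4.60 and 5.42 in replicates 1, 2 and 3. For all 4 genes replicate 3 was highest and replicate 2 lowest. The same arrays ranked alike for Ttr, the transthyretin gene that is a defining marker of choroid plexus, a ciliated epithelium of the brain, at 11.97, 6.43 and 13.31. Of 11 choroid plexus genes listed after these values were seen, 9 were highest in replicate 3 among the 3 arrays of this group. The share of all genes highest in that array is not given, so this count is a description and not a test. The mean log2 signal of the 11 was 6.76, 5.26 and 7.65 there, and 5.05 to 5.16 in the distal mandible at E13.5. At E14.5 Ttr in the proximal mandible read 10.25, 10.96 and 6.89.

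The calls of the cilium genes in the mandible were recomputed without those arrays, an alternative chosen after seeing the data. By position at E13.5 Dynlrb2 was lower distally by 0.90 ± 0.23 (adjusted p = 0.00239) and Pifo by 0.61 ± 0.18 (adjusted p = 0.00748). Without proximal replicate 3 of E13.5 the differences were -0.32 (adjusted p = 0.231) and -0.18 (adjusted p = 0.433), and without the 4 proximal mandible arrays of raised Ttr 0.26 and 0.17. From E13.5 to E14.5 Dynlrb2 was lower by 0.44 ± 0.17 (adjusted p = 0.0376) and Deup1 by 0.27 ± 0.09 (adjusted p = 0.0202). Without that array these were -0.15 (adjusted p = 0.425) and -0.17 (adjusted p = 0.15), and without the 4 arrays -0.01 and -0.05. At E14.5 limma called 0 of the 4 cilium genes by position in the mandible. Dynlrb2 (-0.54, adjusted p = 0.0799) and Pifo (-0.38, adjusted p = 0.108) had an unadjusted p under 0.05. Both were called in the fit without that E13.5 array (adjusted p = 0.00966 and 0.0217). It is not among the arrays compared at E14.5, and the differences stayed at -0.54 and -0.38. The fit without the 4 arrays leaves a single proximal array at E14.5, replicate 3. That array read 4.45 for Dynlrb2 and 4.93 for Pifo, beside distal means of 4.21 and 4.74.

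The choroid plexus list was mixed in the maxilla. At E14.5 Ttr read 6.27 to 7.36 in the 6 maxilla arrays and Kcne2, an ion channel subunit of choroid plexus, 3.92 to 4.34, beside 6.17 to 6.50 and 4.16 to 4.21 in the distal mandible at E13.5. The mean of the 4 cilium genes was 7.87 to 7.94 on the distal maxilla arrays at E14.5 and 5.73 to 5.85 on the proximal ones. It was 5.95 on the mandible array of highest Ttr. Ttr was higher in the distal maxilla at E13.5, at 8.41 to 8.48, where that mean was 5.01 to 5.18. Other genes of the list lay above the distal mandible at E13.5 in all 6 maxilla arrays at E14.5 or in the proximal ones. Otx2, a regulator also known from other head tissues, was at 6.42 to 7.39 beside 3.96 to 4.32, and Kcnj13 at 5.42 to 5.74 beside 4.78 to 5.01. Htr2c was at 4.59 to 5.11 proximally and 3.69 to 4.10 distally, beside 3.86 to 4.24. The mean of the 11 genes was 5.66 to 5.87 in the maxilla at E14.5, and 5.59 to 5.95 at E13.5, beside 5.05 to 5.16 in the distal mandible at E13.5. The maxilla and this mandible group lie in different batches, and the part of choroid plexus RNA in the maxilla values was not tested.

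**Figure D4:**
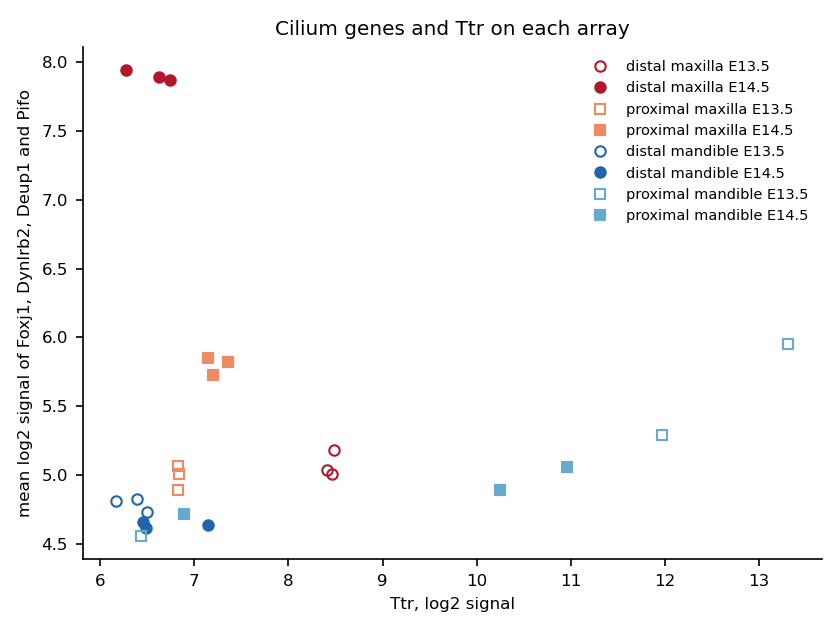
Mean log2 signal of Foxj1, Dynlrb2, Deup1 and Pifo (vertical axis) against the log2 signal of Ttr (horizontal axis), a point for each of the 24 arrays at E13.5 (open) and E14.5 (filled). The 3 distal maxilla arrays at E14.5 lie at 7.87 to 7.94 with Ttr at 6.27 to 6.74. The 4 proximal mandible arrays with Ttr above 10 reach at most 5.95.

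Markers of epithelium as a whole moved by position too. All 23 measured genes of a general epithelium list were higher in the distal maxilla at E14.5, where 21.3% of all genes were called higher and 12.3% lower. Their median was 0.94, against 0.05 over all genes, with Krt19 higher by 1.41 and Trp63, a regulator of basal and stratified epithelium, by 1.31. The mean log2 signal of the list was 9.60 to 9.67 on the distal arrays and 8.66 to 8.73 on the proximal ones. At E13.5 its median over arrays was 9.03 distally and 8.66 proximally. By position in the mandible at E14.5, 15 of the 23 were called higher distally and 4 lower, with a median of 0.56 against 0.01. Of all genes 15.0% were called higher and 11.8% lower there. The distal mandible arrays at E14.5 were at 9.82 or more for this list and at 4.62 to 4.66 for the mean of the cilium genes. They lie in another batch than the maxilla arrays, so a difference in level between the jaws cannot be told from batch. The part of a different epithelial share in the position differences was not tested.

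Over the 20 group means the 4 cilium genes had Pearson correlations of 0.94 to 0.98 with each other, given as a description. Cyp2f2, Cbr2 and Serpinb11 correlated at 0.94 with each other and at 0.54 to 0.79 with the cilium genes. Bpifa1 stood between, at 0.85 to 0.93 with the cilium genes and 0.76 to 0.90 with those 3. Foxa1 correlated least, at 0.32 to 0.71 with the other 8. The genes were chosen for a rise in the maxilla at E14.5, and those groups are among the 20, so high correlations among them follow in part from the choice and support nothing. The points also share arrays and batches, and most groups of the cilium genes lie near the low-signal limit.

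Among all other genes, Ccno was most like Foxj1 (0.975), Pifo (0.962), Deup1 (0.961), Dynlrb2 (0.946) and Bpifa1 (0.898). Ccno encodes a cyclin needed for centriole amplification in multiciliated cells. It stood at 7.40 in the distal and 5.89 in the proximal maxilla at E14.5. Tspan1 followed for Foxj1 (0.949) and Deup1 (0.947), and Cfap126, a cilium gene, for Pifo (0.947). Ehf, an epithelial ETS factor, was most like Cyp2f2 (0.949), Lypd2 most like Cbr2 (0.945), and Gsta3, a glutathione transferase, most like Serpinb11 (0.95). Foxa1 had no close match, with Lrrc3b at 0.80, Tmem53 at 0.767 and the simple-epithelial keratin Krt8 at 0.762.

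Other genes of these cell types were read from 9 lists of related genes, of which 160 genes that are not among the 9 were measured. In the maxilla from E13.5 to E14.5, 59 of the 160 were called higher and 7 lower, where 10.3% and 12.9% of all genes were. Of 36 genes of the motile cilium axoneme 15 were higher and 1 lower, with a median of 0.17 against -0.02 over all genes. Rsph1, a radial spoke protein, rose by 0.90 ± 0.09, Capsl by 1.10, the dynein assembly factor Zmynd10 by 0.76 and the microtubule protein Tekt1 by 0.55. Of 13 regulators of multiciliated cells 2 were higher and 0 lower, Ccno by 1.38 ± 0.10 (adjusted p = 1.73e-15) and the transcription factor Myb by 0.72, with a median of 0.01. Of 29 genes of airway secretory cells 10 were higher and 1 lower, with a median of 0.12. The antimicrobial lectin Reg3g rose by 1.65, Lypd2 by 1.39, Sec14l3 by 0.63 and Wfdc2 by 0.37. Scgb1a1, the classical club cell product, differed by -0.09 (adjusted p = 0.528).

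Other epithelial lists moved in part. Of 14 regulators of gut tube and airway epithelium 5 were higher, among them Ehf by 1.44, Grhl1 by 0.65 and Klf5 by 0.43, and 2 lower, among them Sox9 by 0.54. Foxa2, the close relative of Foxa1, differed by 0.09 (adjusted p = 0.78) and Nkx2-1, the regulator of lung and thyroid, by -0.10 (adjusted p = 0.401). Of 23 general epithelium genes 12 were higher and 1 lower, with a median of 0.32, Krt19 by 1.14 and Krt8 by 0.85. Of 18 genes of the Bpif and Serpinb families 9 were higher and 0 lower, with a median of 0.19, Serpinb7 by 1.07 and Serpinb1a by 0.75. Of 12 salivary and serous gland genes 3 were higher, with the lysozyme gene Lyz1 by 0.85 and a median of 0.04.

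Markers of the olfactory lining, the other epithelium of the nose, were read separately for neurons and for supporting cells and glands. Of 9 olfactory neuron genes limma called 0 higher and 2 lower, Gnal by 0.31 and Ebf2 by 0.23, with a median of -0.01. The call of Gnal was lost without replicate 1 or 2 (adjusted p = 0.128 and 0.135), and that of Ebf2 without replicate 1 or 3 (adjusted p = 0.0609 and 0.337) or with the mean of probe sets (adjusted p = 0.0808). The mean of both pieces covers opposite differences of Gnal, whose level was 7.54 and then 6.38 in the distal maxilla and 9.15 and then 9.68 in the proximal maxilla. Omp, the defining marker of mature olfactory neurons, was at 6.21 to 6.41 in the maxilla at E14.5, within its range of 5.87 to 6.88 over all mandible arrays. Of 8 genes of olfactory sustentacular cells and Bowman glands 3 were higher and 0 lower, with a median of 0.08. Of all genes 10.3% were called higher and 12.9% lower. By position in the maxilla at E14.5, 3 of these 8 were higher distally and 0 lower, with a median of 0.17. In that contrast 21.3% of all genes were higher and 12.3% lower.

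**Figure D5:**
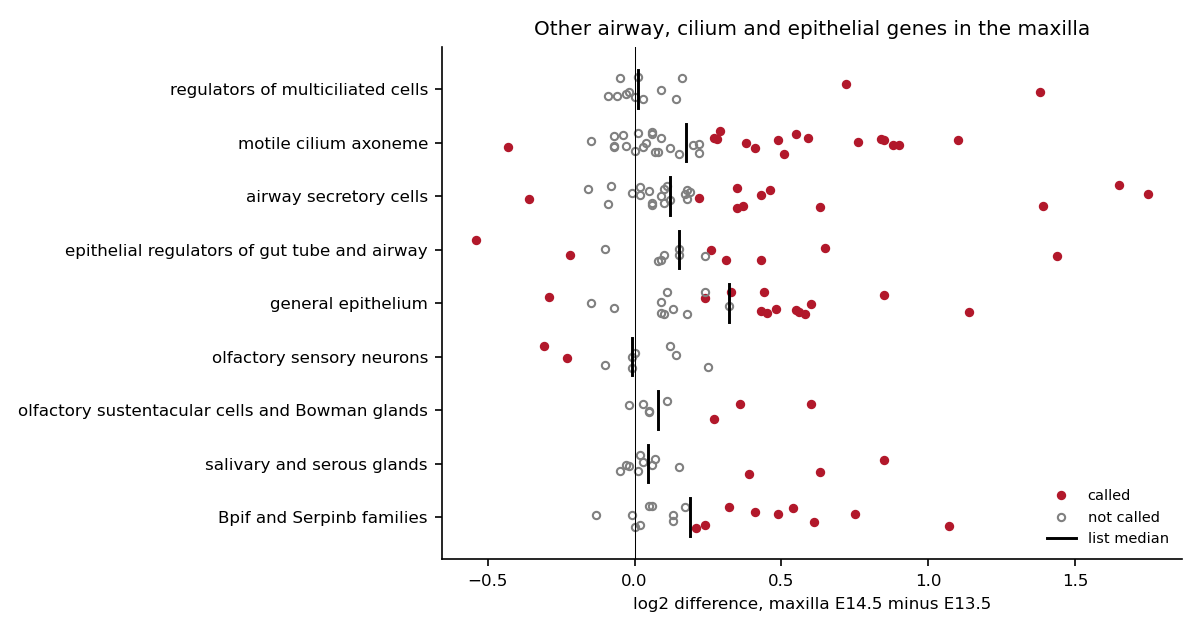
Log2 difference between E14.5 and E13.5 in the maxilla (horizontal axis, mean of both pieces) for each measured gene of the 9 lists, a point for each gene, filled where limma called it and open where it did not, with a bar at the list median. Vertical spread within a list only separates the points. Airway secretory, axoneme and epithelial genes reach 1.1 and more, while the olfactory neuron genes stay at or under 0.25.

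By position in the maxilla at E14.5 the cilium, secretory and serpin lists had more genes called higher than lower in the distal piece. Over all genes 21.3% were called higher and 12.3% lower in this contrast, with a median of 0.05. Of the 36 axoneme genes 16 were higher distally and 2 lower, with a median of 0.30, Capsl by 1.85, Tekt1 by 1.27 and Zmynd10 by 1.06, while Tppp3, a tubulin-binding protein, was lower by 1.82. Of the 13 multiciliated regulators 8 were higher distally, among them Ccno by 1.51, Myb by 1.31, Trp73 by 0.91 and Cep152 by 0.65. Of the 29 airway secretory genes 10 were higher and 1 lower, Reg3g by 2.77 and Adh7 by 1.21. Of the 18 Bpif and Serpinb genes 7 were higher, Serpinb7 by 2.99 and Serpinb5 by 1.16. Of the 9 olfactory neuron genes 1 was higher and 3 lower, with Gnal, a G protein subunit of olfactory signalling, lower by 3.3. The median difference of that olfactory list was 0.02. By position in the mandible at E14.5, 15.0% of all genes were called higher distally and 11.8% lower. There 5 of the 13 multiciliated regulators were higher distally and 1 lower, and of the 36 axoneme genes 1 was higher and 4 lower. Of the 29 airway secretory genes 3 were higher and 7 lower there, and of the 18 Bpif and Serpinb genes 5 were higher and 1 lower.

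In the mandible from E13.5 to E14.5 13.3% of all genes were called higher and 17.2% lower, with a median of -0.03, and the lists are to be read against those shares. Of the 36 axoneme genes 1 was higher and 4 lower, with a median of -0.08, and Ccno differed by -0.17 (adjusted p = 0.213). Of the 18 Bpif and Serpinb genes 10 were higher and 0 lower, with a median of 0.24, Serpinb3a by 2.64 ± 0.10, Serpinb7 by 2.03, Serpinb1a by 1.93 and Serpinb5 by 1.88. Of the 23 general epithelium genes 19 were higher and 2 lower, with a median of 0.44, Krt19 by 1.58, Rab25 by 1.38 and Perp by 1.28. Of the 14 epithelial regulators 4 were higher, Grhl1 by 2.02, Klf5 by 0.95, Ehf by 0.80 and Grhl3 by 0.54. Of the 29 airway secretory genes 5 were higher and 2 lower, with Gabrp lower by 0.76. The mean of Cldn10, of the same list, went from 6.62 to 7.29 distally and from 6.28 to 6.78 proximally.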

How the data were processed

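The authors' deposited table gives log2 signals, made with RMA (background correction, normalization and summary of probes) per the submitters' processing notes. The version of RMA, and whether the 60 arrays were processed in a single run, are not given in the sources used here. The values were taken as they stand, with 0 missing. Of 45101 probe sets, 64 controls, 932 with several gene symbols and 9160 with none in the platform annotation were left out, and each of 18193 genes was taken by its probe set of highest mean. Each of the 9 genes has a single probe set, so no other probe set could be compared. A RefSeq table (GRCm38.p6) supplied the promoters of all but Foxj1.

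A mean for each of the 20 groups was fitted with limma 3.58.1 (R 4.3.3), which leaves 40 residual degrees of freedom, and contrasts were tested with eBayes (trend), two-sided, and adjusted with Benjamini-Hochberg over all genes. Fits were tested on simulated data. The 9 genes and all lists were chosen with earlier results of these data known, and 24 of 184 listed symbols outside the 9 had no gene here. From each list up to 4 called genes of smallest p with a group mean of at least 6 are named; Scgb1a1, Foxa2, Nkx2-1, Omp, Hand2, Otx2, Ttr, Kcne2, Ccno in the mandible and Serpinb7 by position there were named after their values were seen. For each of the 9, the 3 genes of highest Pearson correlation over the group means were taken. Alternatives were other normalizations, a filter on dim genes, other probe set rules, the compared arrays alone, other eBayes settings, array weights, the replicate block, and leaving out replicates or, after seeing the data, arrays with raised Ttr.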

Additional observations from a re-analysis of the deposited data

Results flagged for a closer look

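A tested difference between ages drew attention in 8 genes, for the change of the distal minus proximal difference in the maxilla from E13.5 to E14.5: Dynlrb2 (2.46), Deup1 (2.22), Bpifa1 (1.97), Pifo (1.94), Foxj1 (1.42), Cyp2f2 (1.28), Cbr2 (0.89) and Serpinb11 (0.86), each a log2 difference. A tested difference between jaws did so in 8 genes, for the distal minus proximal difference of the maxilla against that of the mandible at E14.5: Bpifa1 (4.28), Foxa1 (3.14), Dynlrb2 (3.11), Pifo (2.42), Deup1 (2.25), Foxj1 (1.62), Serpinb11 (1.30) and Cbr2 (0.94). The jaws lie in different labelled batches, and each position difference was formed inside a batch, but a batch difference in scale would not cancel. Both tests use maxilla arrays that the choice of the genes was made on. Groups of 3 arrays are too small for a systematic search for single outlying arrays. The arrays with raised Ttr were left out only in alternatives chosen after the data were seen.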

How the results depend on the processing

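Over all alternatives, the values of the 9 genes kept direction and side of the threshold in 1916 cases, fell under it in 36, passed it in 20 and changed sign in 2. The 2 are Dynlrb2 (0.26) and Pifo (0.17) by position in the mandible at E13.5 without the 4 arrays with raised Ttr, and the cause was not tested. Listed genes named for the maxilla kept their side in 413 cases and fell under it in 8. The count of genes called by position in the maxilla at E14.5 was 9 of 9 in every alternative that tested all 9.

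Leaving out a replicate number from all groups gave these lowest and highest numbers of the 9 genes called: by position in the mandible at E13.5, 2 to 6 (5 with all arrays), in the maxilla at E12.5, 1 to 2 (2), in the mandible at E12.5, 0 to 1 (2), and in the maxilla at E11.5, 1 to 2 (2). Of all genes it left 1593 to 2186 by position in the maxilla at E13.5 (2858), 2967 to 4069 in the mandible at E14.5 (4871), 2796 to 4101 in the mandible at E13.5 (4609), 2086 to 3185 in the maxilla at E10.5 (3666), 1817 to 2703 in the mandible at E10.5 (3474), 495 to 859 for the change of the maxilla position difference (1290), 2444 to 3493 for the jaws' position differences at E14.5 (4110) and 2355 to 3107 for the maxilla from E13.5 to E14.5 (4208). These have fewer arrays.

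With only the arrays compared, 2 of the 9 were called by position in the mandible at E13.5 and 4 in the maxilla at E11.5, and of all genes 300 in the mandible at E11.5 (1625), 1414 in the maxilla at E10.5 and 2173 for the change of the maxilla position difference. Array weights, whose fit gave a convergence warning, called 5433 genes by position in the maxilla at E13.5, 6275 in the mandible at E11.5 with 1 of the 9, 4755 for the change of the maxilla position difference, 6172 for the jaws' position differences and 6849 for the maxilla from E13.5 to E14.5. Without the array of highest Ttr, 3 of the 9 were called in the mandible at E13.5. Without the 4 arrays with raised Ttr, it was 3 there and 4 in the maxilla at E11.5, and of all genes 2894 by position in the mandible at E14.5, 2478 at E13.5 and 3357 for the mandible from E13.5 to E14.5 (5563). Centring left 1 of the 9 by position in the mandible at E12.5. Without dim genes (highest group mean under 8.45), which keeps 6 of the 9, 5 were called for the change of the maxilla position difference and 5 for the jaws' position differences, and 31 listed genes instead of 66.

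Centring also moved the share of higher among called genes by position from 59.8% to 73.7% in the maxilla at E12.5, 54.4% to 75.0% at E11.5, 47.2% to 66.5% in the mandible at E12.5 and 35.6% to 58.3% at E11.5. Same-numbered arrays of the distal and proximal pieces deviated together in 10 of 30 pairs (correlation over 0.1, range -0.356 to 0.438). In the maxilla at E10.5 the correlations were 0.34, 0.17 and 0.265. The numbers were not used as pairs in the main fit, and these correlations cannot decide whether same-numbered pieces share embryos. With the replicate number as a fixed block, 9 of 9 genes were called by position in the maxilla at E14.5, 8 for the change of that difference and 6 for the mandible from E13.5 to E14.5, no call of the 9 changed, and no count of calls moved by over 1.5 times. The array's signal range limits all groups near 4.78.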

Other observations

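Gsta3, Serpinb7 and Ehf were the genes most like Serpinb11 over the 20 group means (0.95, 0.907 and 0.905). In the maxilla at E14.5 Serpinb7 stood at 7.94 distally and 4.95 proximally, a difference of 2.99, beside 2.63 for Serpinb11. In the mandible at E14.5 Serpinb7 differed by 0.52 (adjusted p = 0.0548, limma), beside 1.33 for Serpinb11. Reg3g, listed among airway secretory genes, was at 7.59 in the distal maxilla and 4.82 in the proximal maxilla at E14.5, and at 4.08 and 4.05 in the distal and proximal mandible, under the low-signal limit.

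Tppp3, listed with the motile cilium axoneme, was placed opposite to the cilium genes in the maxilla at E14.5, lower distally by 1.82 (adjusted p = 1.17e-14, limma), and was also lower distally in the mandible, by 1.57 (adjusted p = 4.2e-12). Trp73, a regulator of multiciliated cells that is also known from basal epithelium, was higher distally in both jaws, by 0.91 in the maxilla and by 1.23 in the mandible (adjusted p = 1.05e-08 and 6.72e-12, limma), whereas Ccno differed by 1.51 in the maxilla and by 0.06 in the mandible (adjusted p = 9.9e-13 and 0.803). The difference between the jaws was not tested for these genes.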
